A study of Mus musculus with 12 samples.

Results

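Natural killer (NK) cells and many killer T cells carry receptors that read the surface of neighbouring cells. The set described here holds 8 genes of that machinery, chosen by name: Cd7, Cd160, Klrd1, Klrk1, Klre1, Klrb1c, Ncr1 and Txk. All 8 were found among the 47643 genes of the deposited tables, each on a single row. They were picked with the difference between old and young tumors already in view, from the same counts and TPM used here, so their values across the ages are given as a description.

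The samples are pieces of mouse pancreatic tumor profiled by bulk poly(A) RNA sequencing, 6 labelled Young tumor and 6 labelled Old tumor by the age of the host mouse. All 12 carry the same cell line, KPC4662, a mouse pancreatic ductal adenocarcinoma line, so the groups differ by host age and share the tumor line. The labels call the cells epithelial, but the pieces are whole tissue and hold leukocyte transcripts too. Throughout, ± is the SD over the 6 libraries of an age. Ages in weeks or months, strain, sex, site of growth and any treatment are not given in the labels used here, nor is it said that each piece came from its own mouse. P-values therefore measure the spread between these pieces, which may be partly technical. In bulk tissue, fewer cells of a type and less RNA per cell cannot be told apart.

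Klrd1 (CD94) pairs with NKG2 chains, among them those encoded by Klrc1 and Klrc2, to form receptors for a nonclassical MHC class I molecule. Klrk1 (NKG2D) binds stress-induced ligands and signals through the adaptors encoded by Hcst and, in mouse, Tyrobp. Klre1 pairs with Klri1 or Klri2, Klrb1c is the NK1.1 antigen of some mouse strains, and Ncr1 (NKp46) is the most NK-restricted gene of the set. Cd160 is a receptor of the immunoglobulin family that binds Tnfrsf14 (HVEM), Cd7 is a surface protein of T and NK cells, and Txk is a kinase of the Tec family that acts after receptor engagement in T cells. Of these, Klrd1, Klrk1, Cd160 and Cd7 are known from activated CD8 T cells as well.

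Of the 6 genes abundant enough to test, Cd7 alone passed the threshold on adjusted p in the edgeR test, as did 2.26% of all tested genes. Its fitted level was 3.10-fold lower in old tumors. Its libraries did not overlap between the ages, which held with old lower for 1.97% of all tested genes. The call was lost with any 1 library but Old tumor 1 left out. It was also lost with no filter on low counts, with a block by replicate number and with either correction for transcript length. Klre1, Klrd1 and Cd160 did not pass, with fitted levels 2.44-, 2.31- and 2.11-fold lower and libraries that overlapped. Klrk1 had a log2 fold change of 0.34 (SE 0.35) and Txk one of −0.02 (SE 0.59). Klrb1c and Ncr1, the genes of the set that mark NK cells most closely, were at 0 to 21 and 0 to 7 counts per library, too few for the test. Measured in CPM (counts scaled to a common library size) against the mean of 12 T cell markers within the same library, Klrk1 was higher in every old tumor than in every young one. That held for 0.637% of all tested genes. For Klrk1 it held as well against 8 of those markers taken singly, which are part of the same mean. These ratios were not repeated in TPM, where the median of Klrk1 was 1.47 for young and 1.34 for old pieces.

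The genes sit on 5 chromosomes of the mm10 (GRCm38) assembly. Klrb1c (ENSMUSG00000030325; chromosome 6, 128778485 to 128789215), Klre1 (ENSMUSG00000050241; 129577905 to 129585827), Klrd1 (ENSMUSG00000030165; 129591782 to 129598775) and Klrk1 (ENSMUSG00000030149; 129610323 to 129623864) lie in the NK gene complex. Klre1, Klrd1 and Klrk1 are direct neighbours there, with gaps of 5954 and 11547 bp and no coding gene between them. Cd7 (ENSMUSG00000025163; chromosome 11, 121036747 to 121039418), Cd160 (ENSMUSG00000038304; chromosome 3, 96798763 to 96829351), Ncr1 (ENSMUSG00000062524; chromosome 7, 4337724 to 4345164) and Txk (ENSMUSG00000054892; chromosome 5, 72695978 to 72752777) lie apart.

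Promoters were available for 6 of the 8 genes, with 10 annotated starts, from RefSeq on GRCm38.p6. Cd7 and Klrd1 had no entry. The letters TGTGGTT, the core bound by Runx factors, occurred on either strand within 250 bases before the start in 7 of the 10 windows, covering Cd160, Klrk1, Klre1, Ncr1 and Txk, against 4.4% of the 32851 promoter windows of that length in the table. Windows of 1 gene can overlap, as both of Ncr1 do. The T-box half-site GGTGTGA and the Stat pattern TTCNNNGAA each occurred in 1 window, both in Cd160 (3.33% and 7.02% of all windows), and the Ets core CCGGAAG in none (6.91%). Matches to different motifs did not overlap, and both Ncr1 windows hold the same Runx letters. A match describes letters and does not show binding. The windows before the outermost starts of Klrk1, Ncr1 and Cd160 are shown 5′ to 3′ on the gene's strand because they belong to genes with log2 fold changes of opposite sign, Klrk1 and Cd160, and to one that was hardly detected, and all hold the Runx core, which is in capitals. They are chr6:129623865-129624114 (minus strand), chr7:4337465-4337714 (plus strand) and chr3:96829352-96829601 (minus strand).
Klrk1: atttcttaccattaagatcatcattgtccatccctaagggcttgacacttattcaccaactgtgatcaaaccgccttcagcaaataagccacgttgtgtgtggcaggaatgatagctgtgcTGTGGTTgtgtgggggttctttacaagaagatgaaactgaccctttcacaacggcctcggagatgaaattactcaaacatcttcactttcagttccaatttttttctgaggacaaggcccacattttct
Ncr1: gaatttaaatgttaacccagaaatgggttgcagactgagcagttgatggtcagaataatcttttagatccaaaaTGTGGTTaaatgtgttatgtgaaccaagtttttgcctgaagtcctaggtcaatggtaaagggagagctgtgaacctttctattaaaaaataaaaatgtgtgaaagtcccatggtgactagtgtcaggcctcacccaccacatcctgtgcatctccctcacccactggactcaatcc
Cd160: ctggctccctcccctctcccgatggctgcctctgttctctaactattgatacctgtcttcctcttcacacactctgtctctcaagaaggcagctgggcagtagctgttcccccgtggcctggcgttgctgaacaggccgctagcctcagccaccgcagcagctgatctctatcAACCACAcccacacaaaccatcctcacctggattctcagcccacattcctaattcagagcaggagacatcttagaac

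The Runx core ended 122 bases before the start in Klrk1, 169 in Ncr1 and 70 in Cd160, where it lies on the opposite strand.

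Library totals ran from 17754645 to 24097599 expected counts. In the edgeR quasi-likelihood test 362 of 16013 genes passed an adjusted p of 0.05 (2.26%), 235 lower (1.47%) and 127 higher (0.793%) in old tumors. Higher genes made up 35.1% of these calls. Their share was 51.5% when libraries were scaled by total counts, and 85.8% or 87.6% in the TPM fits with a pseudocount of 1 or 0.1. Epithelial markers were present as labelled: the keratin and Epcam list summed to 4112 to 7191 CPM (counts scaled to a common library size) in young and 3530 to 5470 CPM in old libraries. Of the 8 genes of the set 6 passed the filter on low counts, and Cd7 alone passed the threshold. The rule that chose the genes used this contrast, so nothing is read from that count.

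**Figure D1:**
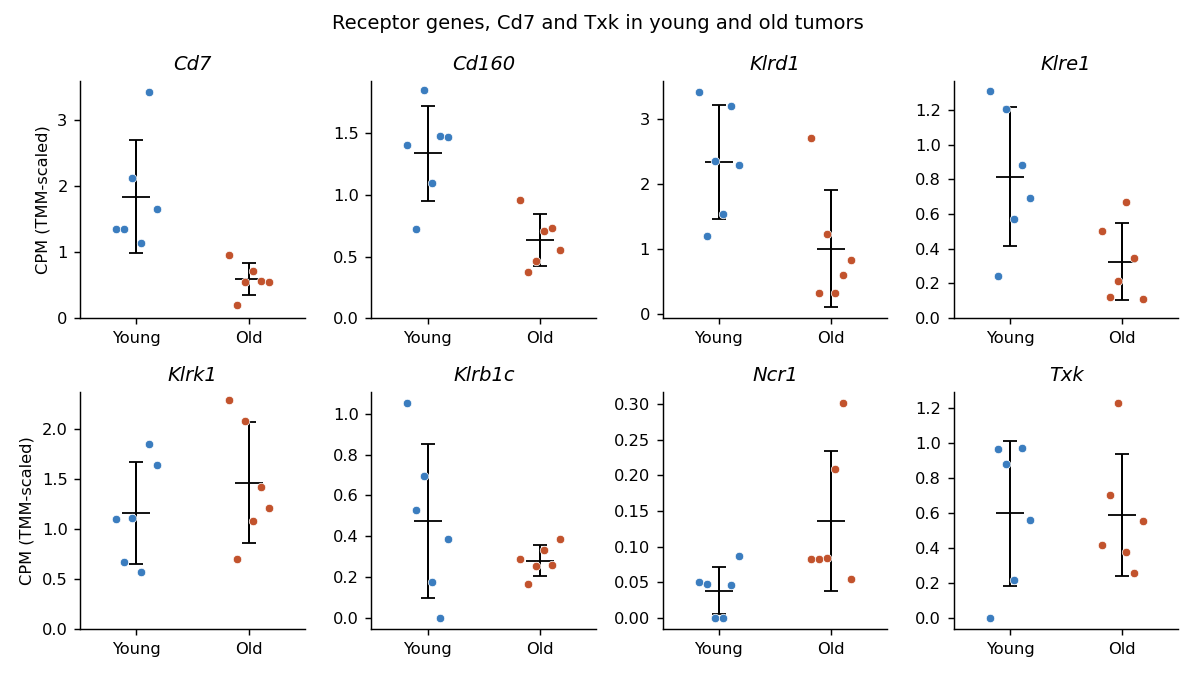
CPM of each gene in the 6 young (blue) and 6 old (orange) libraries, each panel with its own linear axis, with bars for the mean and SD. Cd7 is the gene whose old points, at 0.206 to 0.958 CPM, all lie under its young points, at 1.14 to 3.43 CPM, while Klrk1 and Txk spread over the same range in both ages.

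Cd7 was measured at 27, 28, 46, 26, 74 and 38 counts in Young tumor 1 to 6 and at 23, 5, 13, 16.92, 13 and 10 counts in Old tumor 1 to 6. Every old library lay under every young one, with Old tumor 1 nearest and Old tumor 2 lowest. Its mean was 1.84 ± 0.849 CPM for young and 0.590 ± 0.245 CPM for old pieces (n = 6 per age), and the fitted log2 fold change was −1.63 (SE 0.36). Among all tested genes 1.97% had groups that did not overlap with the old libraries lower. A noncoding gene, Gm11775, overlaps Cd7 on the other strand and shares 6.92% of its 50-base stretches. Gm11775 had at most 1.08 counts in any library. The sources used here do not give whether reads were assigned by strand. The call for Cd7 was lost without any 1 of Young tumor 1 to 6 or Old tumor 2 to 6, though its log2 fold change stayed between −1.74 and −1.36 there. It was also lost with a correction for transcript length (edgeR adjusted p = 0.0997 with lengths implied by the files and 0.057 with annotated ones).

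Cd160 had 28, 15, 40, 25, 32 and 34 counts in the young and 23, 9, 11, 17, 17 and 10 counts in the old libraries. Young tumor 2 lay within the old range, and every old library lay under the young median, which held for 12.1% of all tested genes. Pdzk1 overlaps Cd160 on the other strand, had at most 4.46 counts in any library, and raises the same limit of strand as Gm11775 does for Cd7. The means of Cd160 were 1.34 ± 0.385 CPM and 0.632 ± 0.212 CPM (n = 6 per age), with a log2 fold change of −1.07 (SE 0.29). Cd160 has 3 annotated transcripts, of 1121 to 2590 bases. The effective length implied by its counts and TPM, set to the median gene of the library as 1, averaged 0.754 ± 0.112 for young and 1.01 ± 0.128 for old pieces (n = 6 per age). It was 1.03 to 1.09 in Old tumor 2 to 6 and 0.750 in Old tumor 1, beside 0.669 to 0.761 in all young libraries but Young tumor 2, at 0.972. The same quantity for Cd7 hardly varied, at 0.395 ± 0.0017 and 0.393 ± 0.0022 (n = 6 per age). At 9 to 40 counts per library the share of each Cd160 transcript rests on few reads, and this comparison was chosen after the values were seen.

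Klrd1 was the most abundant receptor of the set per length, at 68, 25, 51, 35, 69 and 53 counts in young and 65, 8, 29, 8, 14 and 15 counts in old libraries. In CPM, Old tumor 1 lay above all young libraries but Young tumor 1 and Young tumor 5, while Old tumor 2, 4, 5 and 6 lay under every young one. The means were 2.33 ± 0.875 CPM and 1.01 ± 0.899 CPM (n = 6 per age), with a log2 fold change of −1.21 (SE 0.48). With Old tumor 1 left out, Klrd1 was at −1.82 (SE 0.40), past the threshold in the edgeR test of all genes (adjusted p = 0.022). In that fit 6.86% of all tested genes passed. With any other single library left out Klrd1 did not pass (edgeR adjusted p = 0.166 to 0.288). Klre1, an immediate neighbour of Klrd1, had 26, 5, 26, 13, 19 and 16 counts in young and 12, 3, 5, 16, 8 and 2 counts in old libraries. Every old library lay under the young median, and Young tumor 2 and Young tumor 4 lay within the old range. The means of Klre1 were 0.815 ± 0.400 CPM and 0.326 ± 0.222 CPM (n = 6 per age), with a log2 fold change of −1.29 (SE 0.48).

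Klrk1 had a log2 fold change of opposite sign to its neighbours Klrd1 and Klre1. None of these genes passed the threshold with all libraries. The log2 CPM ratio of Klrk1 to Klre1 overlapped between the ages, at −0.22 to 1.21 in young and 0.63 to 2.84 in old libraries. Klrk1 had 22, 14, 24, 13, 40 and 38 counts in young and 55, 17, 49, 26, 33 and 22 counts in old libraries. The ages overlapped almost fully, with Old tumor 1 and Old tumor 3 highest. The means were 1.16 ± 0.510 CPM and 1.47 ± 0.608 CPM (n = 6 per age), a difference smaller than the spread in either age. Klrk1 shared none of its 50-base stretches with another annotated gene. Txk had 0, 20, 19, 5, 21 and 13 counts in young and 10, 17, 29, 9, 6 and 10 counts in old libraries. Its ages overlapped fully, at 0.599 ± 0.413 CPM and 0.589 ± 0.349 CPM (n = 6 per age). The sign of the difference in Txk turned with the scaling and with several libraries left out.

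Klrb1c had 21, 11, 15.29, 3.72, 0 and 9 counts in young and 7.06, 4, 6, 8.17, 5.61 and 6.73 counts in old libraries. Young libraries ran from 0 to the highest of all, and the old ones were narrow and lay within that range. Of its 50-base stretches 17.0% also occur in other annotated genes, among them the overlapping model Gm44511 and the related gene Klrb1a, so its counts are uncertain. Summed and rounded, the young libraries held 60 counts and the old 38, a ratio of rates of 0.600 (95% exact interval 0.389 to 0.915, counting error only). With no filter on low counts, the edgeR fit, which takes in the spread between libraries, gave Klrb1c a log2 fold change of −0.74 (SE 0.62). Ncr1 had 1, 1, 0, 0, 1 and 2 counts in young and 2, 2, 2, 5, 7 and 1 counts in old libraries. The old libraries together held 19 counts and the young 5, a ratio of rates of 3.6 (95% exact interval 1.3 to 12.3, which covers counting error only and not the spread between tumors). The same fit with no filter gave Ncr1 a log2 fold change of 1.68 (SE 0.75). A count of 0 in a library allows up to 3 counts, which is 0.124 to 0.166 CPM here, and Ncr1 was at or under 2 counts in all libraries but Old tumor 4 and Old tumor 5.

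Levels can be set side by side with TPM, which scales counts by transcript length and library. In young tumors the order was Klrd1 (4.55 ± 1.60 TPM), Cd7 (3.05 ± 1.31), Klrk1 (1.26 ± 0.497), Cd160 (1.21 ± 0.423), Klre1 (1.04 ± 0.541), Txk (0.415 ± 0.285), Klrb1c (0.352 ± 0.288) and Ncr1 (0.0417 ± 0.0376; n = 6 for each). Klrd1 exceeded Cd7 and Cd7 exceeded Klrk1 in all 6 young libraries. The difference between Klrd1 and Cd7 was no larger than its spread, and from Klrk1 down to Klrb1c no neighbours differed beyond theirs. In old tumors Klrd1 (2.34 ± 2.17 TPM) was followed by Klrk1 (1.46 ± 0.601), Cd7 (1.08 ± 0.427), Cd160 (0.472 ± 0.226), Klre1 (0.430 ± 0.294), Txk (0.427 ± 0.280), Klrb1c (0.242 ± 0.0387) and Ncr1 (0.163 ± 0.118; n = 6 for each). Of the neighbouring pairs, only Cd7 and Cd160 differed beyond their spread, in the same order in all 6 old libraries. Klrk1 thus moved from below Cd7 to above it in 5 of 6 old libraries.

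No T cell marker passed the edgeR threshold, though most had values below 0 beside the receptors. The T cell list ran from Cd3d, Cd3e and Cd3g to Cd8a, Cd4 and the receptor constant genes. Of its 12 members 11 had a log2 fold change below 0, as did 45.8% of all tested genes. The median of the list was −0.81, against a median of 0.03 over all tested genes. At an unadjusted p under 0.05 the list held 5 genes, Cd3d, Cd3e, Cd3g, Cd8a and Cd4. The share of all tested genes at that p is not given here, so nothing is read from that count. DESeq2 called 2 of the 8 to which it gave an adjusted p, Cd8a and Cd4. Over all genes given one, DESeq2 called 10.3%. Its summed level ran from 27.2 to 57.7 CPM in young and from 14.6 to 45.3 CPM in old libraries, and none of its genes was at 0 in any library. Ptprc (CD45), a gene of all leukocytes, was at 51.3 ± 13.8 CPM in young and 48.9 ± 14.1 CPM in old tumors (n = 6 per age). Summed levels of other lists also differed in their means, with overlap between the ages, no call by edgeR and 1, the endothelial gene Cdh5, by DESeq2. The fibroblast list summed to 530 to 1372 CPM in young and 467 to 3614 CPM in old libraries, and the endothelial list to 53.8 to 86.6 and 54.8 to 232 CPM. The acinar list ran from 11 to 33.6 and from 9.94 to 18.8 CPM, with Cpa1 at 0 in at least 1 library. The dendritic cell list ran from 7.15 to 15.0 and from 3.25 to 13.9 CPM, with Siglech at 0 in at least 1 library, and the neutrophil list from 23.3 to 139 and from 20.4 to 65.4 CPM. The part of T cell content or of these cells in the lower receptor levels was not tested.

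**Figure D2:**
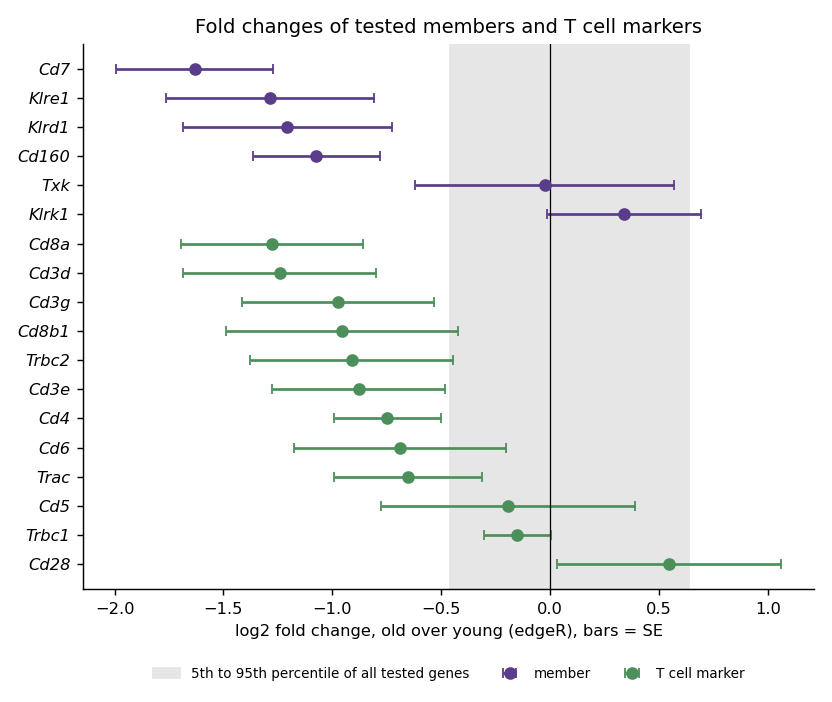
Log2 fold change, old over young, with its SE for the 6 tested genes of the set (purple) and the 12 T cell markers (green); the grey band holds the middle 90% of all 16013 tested genes. Cd7, Klre1, Klrd1 and Cd160 lie left of −1, beside Cd8a and Cd3d, while Txk and Klrk1 lie inside the band.

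Ratios within a library set the receptors against each other and against the T cell markers. The log2 ratio of Klrd1 to Klrk1 was 1.55, 0.76, 1.03, 1.3, 0.76 and 0.46 in Young tumor 1 to 6 and 0.23, −0.91, −0.72, −1.47, −1.13 and −0.51 in Old tumor 1 to 6. In CPM, which takes no account of transcript length, young libraries held more Klrd1 than Klrk1 in every case. Old ones held less by that measure in all but Old tumor 1. Per length, in TPM, Klrd1 lay above Klrk1 in 4 of 6 old libraries. In CPM the ratio of Cd7 to Klrk1 ran from 0.00 to 0.91 in young and from −1.76 to −0.56 in old libraries, again without overlap. Of the 15 pairs among the 6 tested genes, 3 had CPM ratios that did not overlap between the ages, and all of these paired Klrk1 with another gene (Cd7, Cd160 or Klrd1). Among all tested genes, 0.362% had a CPM ratio to Klrk1 that was lower in every old library than in every young one. In TPM the ratio of Klrd1 to Klrk1 overlapped: they were at 6.48 and 1.9 in Old tumor 1 and at 2.33 and 0.78 in Young tumor 2. The implied effective length of Klrk1 averaged 0.610 ± 0.0974 for young and 0.731 ± 0.139 for old pieces (n = 6 per age). The median of Klrk1 was 1.47 TPM for young and 1.34 TPM for old pieces.

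Against the mean of the 12 T cell markers, Klrk1 stood at −1.21 ± 0.325 on the log2 scale for young and at −0.11 ± 0.261 for old pieces (n = 6 per age), with ranges of −1.43 to −0.56 and −0.50 to 0.30. Every old library lay above every young one, which held for 0.637% of all tested genes. The same held for Klrk1 against 8 of the 12 markers taken singly: Cd3d, Cd3e, Cd3g, Cd8a, Cd8b1, Cd4, Trac and Trbc2. For the ratio to Cd3e, 0.368% of all tested genes had old libraries all above the young ones. No other gene of the set separated the ages upward against any of the 12 markers. Cd160 was at −0.96 ± 0.327 and −1.17 ± 0.603 against the list mean, and Klre1 at −1.71 ± 0.564 and −2.09 ± 0.812 (n = 6 per age), differences within the spread. Txk was at −2.36 ± 1.53 and −1.35 ± 0.980, also within it. Klrd1 went from −0.23 ± 0.389 to −0.86 ± 0.521 and Cd7 from −0.57 ± 0.569 to −1.30 ± 0.550 (n = 6 per age), with overlap. The ratios were chosen after the values were seen and rest on the contrast that chose the genes, so no test is given. Those to T cell markers are in CPM and were not repeated in TPM.

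**Figure D3:**
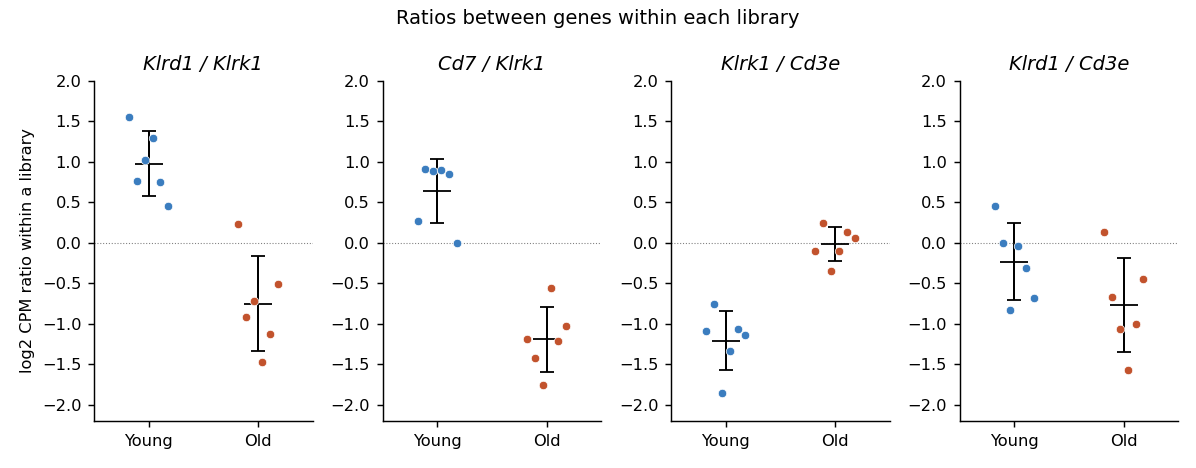
Log2 CPM ratio of a pair of genes within each library, young in blue and old in orange, with bars for the mean and SD; the dotted line marks equal CPM. Klrd1 over Klrk1, Cd7 over Klrk1 and Klrk1 over Cd3e separate the ages fully, and Klrd1 over Cd3e does not.

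Covariation was measured after each gene was centred on the mean of its age, which removes the age difference itself. The 12 libraries share depth and tissue composition, so these correlations are descriptions without a p-value. Across the 15 pairs Pearson's r ran from −0.43 to 0.85, with a mean of 0.39. Cd160 and Klre1 were the pair most alike (r = 0.85, Spearman's rho = 0.77), followed by Klrd1 and Klrk1 (r = 0.81, rho = 0.74) and by Cd7 and Klrk1 (r = 0.77, rho = 0.71). Klrd1 and Klrk1 thus varied together between tumors of 1 age, though their age differences were unlike. Txk stood apart, with r between −0.43 and 0.21 and rho between −0.38 and 0.23 to the other genes. These values include Young tumor 1, where Txk had no count (log2 CPM −3.48), and are not given without it.

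Klrk1 followed the T cell list most closely (r = 0.89, rho = 0.83), with Klrd1 next (r = 0.84, rho = 0.76), then Cd160 (r = 0.66, rho = 0.61), Cd7 (r = 0.59, rho = 0.51) and Klre1 (r = 0.52, rho = 0.54). Txk did not follow it (r = −0.01, rho = 0.05), with Young tumor 1, where Txk had no count, included. Correlations with Ptprc were weaker for all of Cd7, Cd160, Klrd1, Klrk1 and Klre1, between 0.15 and 0.64. The genes most like the mean of the 6 tested members, among 12983 candidates, were Nmi (r = 0.97), Cd3e (0.93), Psmb8 (0.93), Ifi47 (0.93), H2-D1 (0.91), Cidec (0.90), H2-DMb1 (0.90) and Cd4 (0.90). Nmi and Ifi47 are interferon-induced, Psmb8 is an immunoproteasome subunit, H2-D1 a classical MHC class I heavy chain and H2-DMb1 a chaperone of MHC class II, and Cidec coats lipid droplets. For single members the 2 most alike were Glipr1 and Nmi for Cd7 (r = 0.88 and 0.85), Xcl1 and Fam132a for Cd160 (0.90 and 0.88), and Trim30d and Trim30a for Klrd1 (both 0.93). They were Cd3e and Rtp4 for Klrk1 (both 0.92), Pirt and Stk26 for Klre1 (0.91 and 0.89), and Lancl3 and Tmem170 for Txk (0.86 and 0.85). The values for Lancl3 and Tmem170 dropped to 0.77 and 0.61 without Young tumor 1, where Txk had no count.

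**Figure D4:**
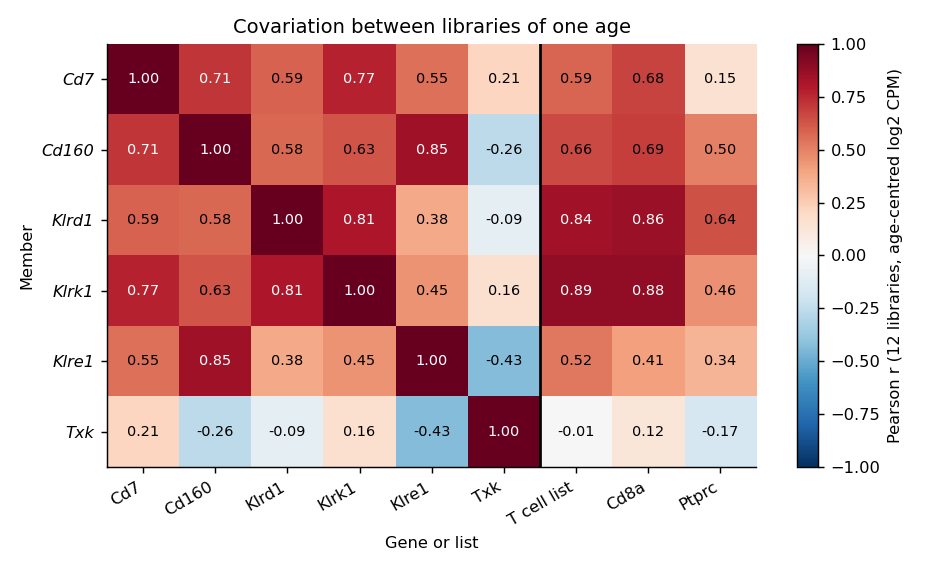
Pearson correlation over 12 libraries of age-centred log2 CPM, for each pair of tested genes and, right of the line, for each gene against the T cell list, Cd8a and Ptprc. Klrd1 and Klrk1 have the darkest cells in the T cell list and Cd8a columns, and the Txk row is pale or blue outside its own cell.

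Partner genes of the receptors, chosen after values were seen, did not track them alike. Klrc1, which encodes the NKG2A chain that joins Klrd1, was at 40.5 ± 10.9 TPM in young and 35.0 ± 6.03 TPM in old tumors (n = 6 per age), far above Klrd1 in every library. Klrc1 exceeded Klrd1 by 4.83- to 24.7-fold per length in young and by 5.27- to 39.0-fold in old libraries. The age-centred correlation of Klrc1 with Klrd1 was 0.05, and that of Klrc2 with Klrd1 was 0.26. Klrc1 did not pass the threshold (log2 fold change −0.37, SE 0.17). Which cells of the pieces its transcripts came from was not tested. The adaptor genes of Klrk1 had similar means in both ages: Hcst was at 2.51 ± 1.56 and 2.56 ± 1.47 TPM and Tyrobp, which myeloid cells also express, at 99.5 ± 24.0 and 99.3 ± 31.4 TPM (n = 6 per age). Hcst rested on 4 to 24 counts in young and 4 to 27 in old libraries. Its log2 fold change of −0.14 had an SE of 0.48, too wide to show that it was unchanged. The Klre1 partner Klri2 was at 0.505 ± 0.241 TPM in young and 0.152 ± 0.226 TPM in old tumors (n = 6 per age), with an age-centred r of 0.69 to Klre1.

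**Figure D5:**
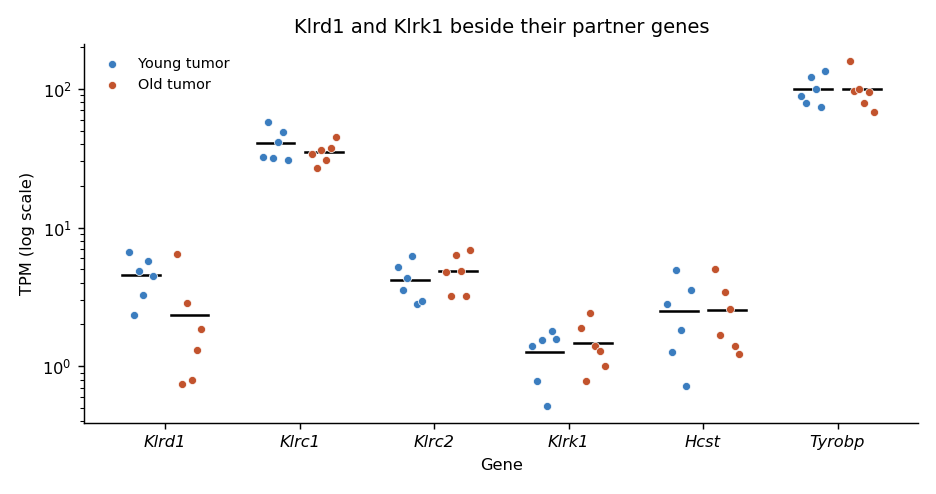
TPM on a log scale of Klrd1 and Klrk1 beside genes whose products pair with them, with 1 point per library (blue young, orange old) and a line at the mean. Klrc1 lies at 27.1 to 57.45 TPM in every library while Klrd1 spans 0.75 to 6.71 TPM.

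The remaining genes of NK cell recognition and function were followed in 7 lists by role, 102 tested genes in all outside the 8. Of these, 1 gene passed the threshold in the edgeR test, or 0.980%, against 2.26% of all tested genes. A log2 fold change below 0 was found in 69 of the 102, and the median was −0.10. Over all tested genes 45.8% lay below 0, the share to set beside the count below 0 of each list. At an unadjusted p under 0.05 the lists held 18 genes. The share of all tested genes at that p is not given here, so nothing is read from this count or from those of each list below. DESeq2 called 4 of the 86 to which it gave an adjusted p, against 10.3% of all such genes: Gzma and Xcl1 among the effectors, the factor gene Gata3 and the integrin gene Itgae, with none in the lists of receptors, ligands, adaptors and cytokines. It gave no adjusted p for the other 16 genes, 4 of them receptors. The lists are by role, and whether their transcripts came from lymphocytes or from other cells of the pieces was not tested.

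Among 14 tested further NK receptors 10 lay below 0, against 45.8% of all tested genes, and none passed (edgeR, 2 at an unadjusted p under 0.05). The smallest p values belonged to Klri2 (log2 fold change −1.81, SE 0.72), Klrc1 and Tigit, an inhibitory receptor of T and NK cells (−0.58, SE 0.29). Ligands of the receptors gave no call among 11 tested genes by edgeR, none of them at an unadjusted p under 0.05. Clec2d, a ligand of Klrb1 family receptors, was at −0.27 (SE 0.19), Raet1e, a ligand of Klrk1, at −0.11 (SE 0.12), and H2-T23, the ligand of Klrd1 pairs, at −0.16 (SE 0.17). Ligand transcripts therefore showed no difference larger than the spread between libraries in these tests.

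Adaptors and proximal signalling genes gave no call among 23 tested by edgeR, with 1 at an unadjusted p under 0.05. That gene was Skap1, a T cell adaptor (log2 fold change −0.96, SE 0.31), followed by the kinase gene Zap70 (−0.60, SE 0.35) and the phospholipase gene Plcg1 (0.17, SE 0.10). Transcription factors of NK cells and innate lymphoid cells gave no call among 16 by edgeR. In that list 13 lay below 0, against 45.8% of all tested genes, and 3 were at an unadjusted p under 0.05. These were Gata3 (−0.55, SE 0.18), Runx3 (−0.50, SE 0.18) and Id2 (−0.21, SE 0.091). Runx3 was at 9.23 ± 1.97 CPM for young and 6.54 ± 1.43 CPM for old pieces (n = 6 per age), with all 6 old libraries under the young median, as in 12.1% of all tested genes. In the same list Gata3, Id2 and Klf2 also had all 6 old libraries under the young median.

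Cytokine genes that act on NK cells were split, with 7 of 14 below 0, no call and 5 at an unadjusted p under 0.05 by edgeR. Il12rb1, a chain of the interleukin 12 receptor, was at −0.86 (SE 0.29), and the signalling genes Jak3 and Stat5a were at 0.27 (SE 0.10) and 0.41 (SE 0.16). Effector genes held the 1 call. Gzma, which encodes granzyme A, fell, with a log2 fold change of −2.14, an SE of 0.45 and an adjusted p of 0.035 by edgeR, and with 8.47 ± 4.18 CPM for young and 1.91 ± 1.54 CPM for old pieces (n = 6 per age). Its libraries did not overlap between the ages. The chemokine gene Xcl1 and Gzmb were at −2.17 (SE 0.53) and −1.28 (SE 0.50). In the effector list 11 of 12 tested genes lay below 0, against 45.8% of all tested genes. Without any 1 of Young tumor 1, 2, 4, 5 or 6, or of Old tumor 2 to 6, no gene of the 7 lists passed, and without Old tumor 1 the count was 10, beside 6.86% of all genes tested in that fit. Homing and residency genes gave no call among 12, with 4 below 0 and 2 at an unadjusted p under 0.05 by edgeR: Itgae, the CD103 integrin chain of tissue-resident lymphocytes (−1.01, SE 0.30), and Itga2 (0.29, SE 0.12). Cxcr6, a chemokine receptor of resident lymphocytes, was at −0.54 (SE 0.38).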

How the data were processed

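RNA from tumor pieces was poly(A) selected and made into directional libraries, per the labels' protocols. Cutadapt 2.3, STAR 2.7.0d, RSEM 1.3.1 and the build mm10 come from the submitters' processing notes. Which annotation was used, and whether strand was, is not stated there. Expected counts, rounded here before testing, and TPM were deposited by the authors.

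Old over young was fitted with edgeR 4.0.16 (R 4.3.3): filterByExpr, then TMM scaling, then the two-sided quasi-likelihood test, Benjamini-Hochberg adjustment over all 16013 tested genes, threshold 0.05. Log2 CPM used a prior count of 2. Coordinates and shared 50-base stretches came from GENCODE on GRCm38, which is mm10. Every pair of libraries differed beyond sampling noise (chi-square per degree of freedom at least 15.5).

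The 8 genes and all lists were chosen with earlier results of these data known. All 8 are named. For each list, genes past the threshold and those of smallest p up to 3 are named. Likeness names the 8 genes, and for each member the 2 genes, of highest age-centred r with at least 1 CPM and an official symbol. Nectin2 was found as Pvrl2, and of Itgam's IDs the most abundant was used. The model was tested on simulated data. Alternatives were other scalings, DESeq2 1.42.0, limma 3.58.1 on TPM, other filters, length corrections, a replicate block and each library left out.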

Additional observations from a re-analysis of the deposited data

How the results depend on the processing

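The calls depend on single libraries and on the model, while the directions of Cd7, Cd160, Klrd1, Klre1 and Klrk1 kept under every alternative that tested them. The count of genes past the threshold, 362, was 1425 with DESeq2, 151 with no filter, 2 with a correction for the effective length implied by counts and TPM, 111 with one for annotated exon length (chosen after seeing the data) and 742 with Old tumor 1 and Old tumor 5 left out together. With 1 library left out it ran from 2 to 1106. The number of the 8 genes past it, 1, was 0 with no filter and with either length correction, 3 with Old tumor 1 and Old tumor 5 left out together (Cd7, Cd160 and Klrd1), and from 0 to 3 with 1 library left out. DESeq2 gave no adjusted p for 5 of the 6 tested genes, so it has no count here. The number among the role lists, 1, was 2 with RLE size factors, with at least 1 CPM in 6 libraries and on log2(TPM + 1), 4 with DESeq2, 0 with the implied length correction and 6 with Old tumor 1 and Old tumor 5 left out together. With 1 library left out it ran from 0 to 10.

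With the replicate block 1 gene passed over all, with 0 of the 8 genes and 0 of the role lists. The numbers pair nothing the labels state: the correlation of same-numbered libraries ran from −0.23 to 0.14, was over 0.1 in 2 of 6 pairs, and 2 of 6 young libraries were most like the old library of their own number. Txk changed sign: 0.017 with total counts, 0.018 and 0.20 on log2(TPM + 1) and log2(TPM + 0.1), 0.14 with the replicate block, 0.26 with Old tumor 1 and Old tumor 5 left out together, 0.15, 0.13 and 0.16 without Young tumor 2, 3 or 5, and 0.045, 0.077 and 0.14 without Old tumor 1, 4 or 5, against −0.37 without Old tumor 3. The mean pairwise r of the tested genes ran from 0.35 to 0.45 with 1 library left out. Counts of 0 to 74 per library limit all 8 genes.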
